A study of Mus musculus with 14 samples.

Results

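Hearts of mice lacking Fhl2 were compared with hearts of wild-type (WT) mice in mRNA sequencing libraries. The comparison took in all 8 heart libraries, 4 WT and 4 knockout (KO), of the 14 libraries in the series, and the other 6 came from gonadal white adipose tissue (gWAT), 3 per genotype. Membership was set by the tissue and genotype labels and by no measured value. The mice of both groups were C57BL/6 at an age of 21 weeks, and a high-fat diet of 8 weeks was common to WT and KO, so no heart on another diet was analysed here. The KO group is labelled FHL2-/-, and the labels give neither the part of the gene that was removed nor the sex of the mice. Nothing in the labels ties a library to 1 animal, so p-values measure only the spread between these samples, which may be technical.

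FHL2 belongs to the FHL proteins, which consist of four-and-a-half LIM domains, zinc-binding modules that hold other proteins. It is abundant in heart muscle, where it sits at the Z-disc and along titin and binds metabolic enzymes, and it also enters the nucleus as a partner of transcription factors such as serum response factor, FOXO1 and beta-catenin. In mice, loss of FHL2 is known for leaving the unstressed heart close to normal in form and for altering its response to adrenergic load.

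The 8 libraries held between 10835092 and 13272412 counts. Mitochondrially encoded transcripts took 28.2% to 34.5% of them. The heart muscle genes Myh6 and Tnnt2, which encode a myosin heavy chain and troponin T, were at 10085 to 13345 CPM and 4166 to 4751 CPM of the library total. Elsewhere CPM, the counts of a gene relative to the size of its library, are scaled by the TMM method. The libraries did not form 1 homogeneous set. In both genotypes, titles number the libraries 1 to 4, and the first principal component (41.1% of the variance) placed numbers 1 and 2 apart from numbers 3 and 4. Over all genes, 1102 of 14159 (7.78%) passed an adjusted p of 0.05 between these number sets with genotype in the fit, 735 lower and 367 higher in numbers 3 and 4. Genes of atrial muscle and of the epicardium were lower in numbers 3 and 4, with list medians of −1.94 and −2.05 on the log2 scale. The sets were picked for their atrial difference in these data, so the count of 1102 and these medians describe the split and do not test it. Myl7, the atrial regulatory myosin light chain, was at 611, 649.8, 5.04 and 13.1 CPM in WT libraries 1 to 4 and at 669, 612, 101 and 121 CPM in KO libraries 1 to 4. The tests of genotype therefore carried a term for the number set, a term that was chosen because the atrial difference had been seen in these data. In bulk tissue, fewer cells of a type and less RNA per cell cannot be told apart, and the labels do not say which parts of the heart were taken.

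Of 14159 genes tested with the number-set term, 2 passed an adjusted p of 0.05 (edgeR quasi-likelihood test, Benjamini-Hochberg adjustment), which is 0.0141% of them. With the title number as a block, 1 passed, Fhl2. Fhl2 fell and Mthfd2, a mitochondrial enzyme of one-carbon metabolism, rose. At an unadjusted p under 0.05 stood 804 genes (5.68%), with 448 higher (3.16%) and 356 lower (2.51%) in KO hearts. In 176 genes (1.24%) every KO library lay above every WT library, and in 165 (1.17%) the reverse held, 341 (2.41%) in all. The median log2 fold change over all genes tested was −0.000858, and 49.7% of the genes had a positive value. All fold changes below are log2 of KO over WT with their standard error (SE).

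**Figure D1:**
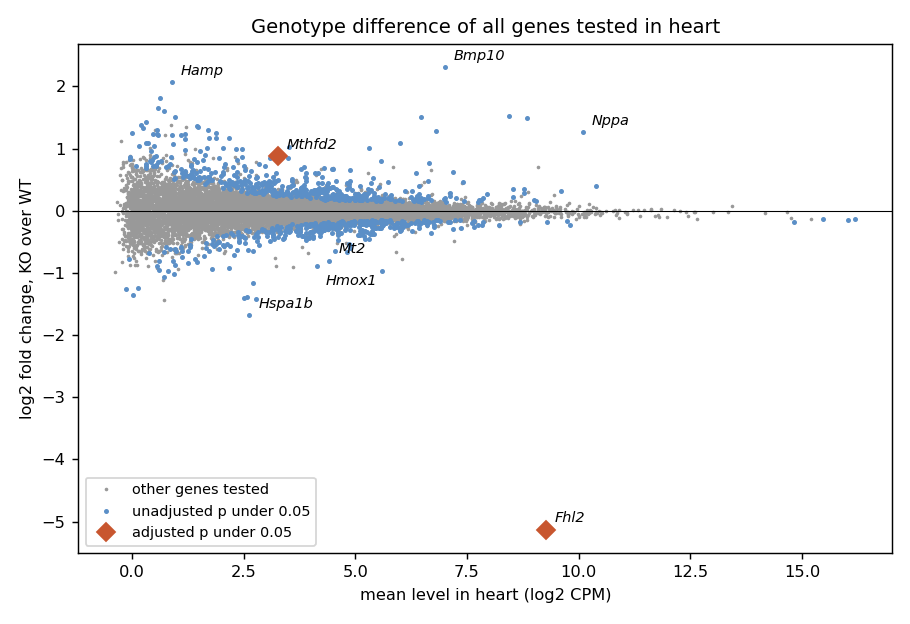
Each point is 1 of the 14159 genes tested in heart, with its mean level over the 8 libraries in log2 CPM on the horizontal axis and its log2 fold change, KO over WT, on the vertical axis. Fhl2 and Mthfd2 (diamonds) had an adjusted p under 0.05, genes in blue had an unadjusted p under 0.05, and most genes lay close to 0.

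Fhl2 (ENSMUSG00000008136, chr1:43123074-43196984 on GRCm38, minus strand) was the gene that set the groups apart. Its level was 1031, 1068, 1294 and 1396 CPM in WT libraries 1 to 4 and 34.8, 28.6, 37.8 and 34.7 CPM in KO libraries 1 to 4. The lowest WT library was far above the highest KO library, and WT numbers 3 and 4 were above WT numbers 1 and 2. The log2 fold change was −5.13 ± 0.09 (adjusted p = 7.84e-13), a 35.0-fold lower level, and KO hearts kept 2.84% of the WT mean. It was −5.05 ± 0.12 in numbers 1 and 2 and −5.21 ± 0.12 in numbers 3 and 4. Reads from a part of the gene that was not removed would still be counted, so the remaining level does not measure intact transcript.

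RefSeq places Fhl2 transcripts at 2 start sites on GRCm38.p6, and the 250 bases before each are shown because these are the sequences in front of the one gene whose loss defines the KO group. Capitals mark a CArG box, the element that serum response factor recognises, searched on both strands. The first start site has it 96 to 87 bases before the start (chr1:43196762-43197011, minus strand), and the second 31 to 22 bases before (chr1:43163962-43164211, minus strand). A CArG box occurs in 1.47% of 32851 windows of this length before RefSeq starts. A match describes the letters and is not evidence of binding.
Fhl2 start 1: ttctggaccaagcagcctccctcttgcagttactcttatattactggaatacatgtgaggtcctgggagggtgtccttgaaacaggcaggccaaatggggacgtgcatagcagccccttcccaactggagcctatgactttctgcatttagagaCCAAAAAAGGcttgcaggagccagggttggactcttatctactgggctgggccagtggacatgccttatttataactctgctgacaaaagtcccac
Fhl2 start 2: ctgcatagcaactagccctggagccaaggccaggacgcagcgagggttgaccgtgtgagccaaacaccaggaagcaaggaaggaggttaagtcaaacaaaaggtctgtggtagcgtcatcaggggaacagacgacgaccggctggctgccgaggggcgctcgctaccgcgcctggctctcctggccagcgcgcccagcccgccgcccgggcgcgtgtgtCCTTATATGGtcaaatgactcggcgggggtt

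The other members of the family were far below Fhl2 in WT hearts, and the tested ones did not pass. Per exon length and library size (RPKM, computed here), Fhl2 was at 631 ± 93.003 RPKM (SD, n = 4) in WT and 17.9 ± 2.05 RPKM (SD, n = 4) in KO hearts. Fhl1, a sarcomere-associated relative that is mutated in several myopathies, was at 39.97 ± 10.5 RPKM in WT and 38.4 ± 3.34 RPKM in KO hearts (SD, n = 4 each). Fhl3, best known from skeletal muscle, was at 1.78 ± 0.586 RPKM and 1.74 ± 0.638 RPKM (SD, n = 4 each). The order in WT hearts was Fhl2, Fhl1, Fhl3, with no overlap between neighbours, and in all 4 KO libraries Fhl1 was the member with the highest level. The log2 fold changes of Fhl1 and Fhl3 were −0.02 ± 0.10 and −0.00 ± 0.27 (adjusted p = 0.995 and 0.9996). Fhl1 differed in sign between the number sets, −0.28 ± 0.10 against 0.24 ± 0.10. Fhl4 and Fhl5 had 60 reads and 1 read over all 8 libraries and were not tested.

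Beyond the family, a list of 19 genes joined the relatives with other LIM-domain and Z-disc partner genes, and 0 of the 17 tested passed. The median fold change was −0.01. Csrp2, a cysteine-rich LIM protein of smooth muscle, was at 29.3, 19.1, 7.73 and 7.04 CPM in WT and 26.2, 35.5, 16.4 and 9.67 CPM in KO libraries (0.54 ± 0.18, adjusted p = 0.684). Its groups overlapped, and in both genotypes it was lower in numbers 3 and 4. Lmcd1, a LIM protein that restrains GATA factors, was at 23.8, 25.3, 21.01 and 21.2 CPM in WT and 16.5, 18.2, 20.5 and 21.2 CPM in KO libraries (−0.26 ± 0.10, adjusted p = 0.754), and its KO values lay below WT in numbers 1 and 2 and met WT in numbers 3 and 4.

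**Figure D2:**
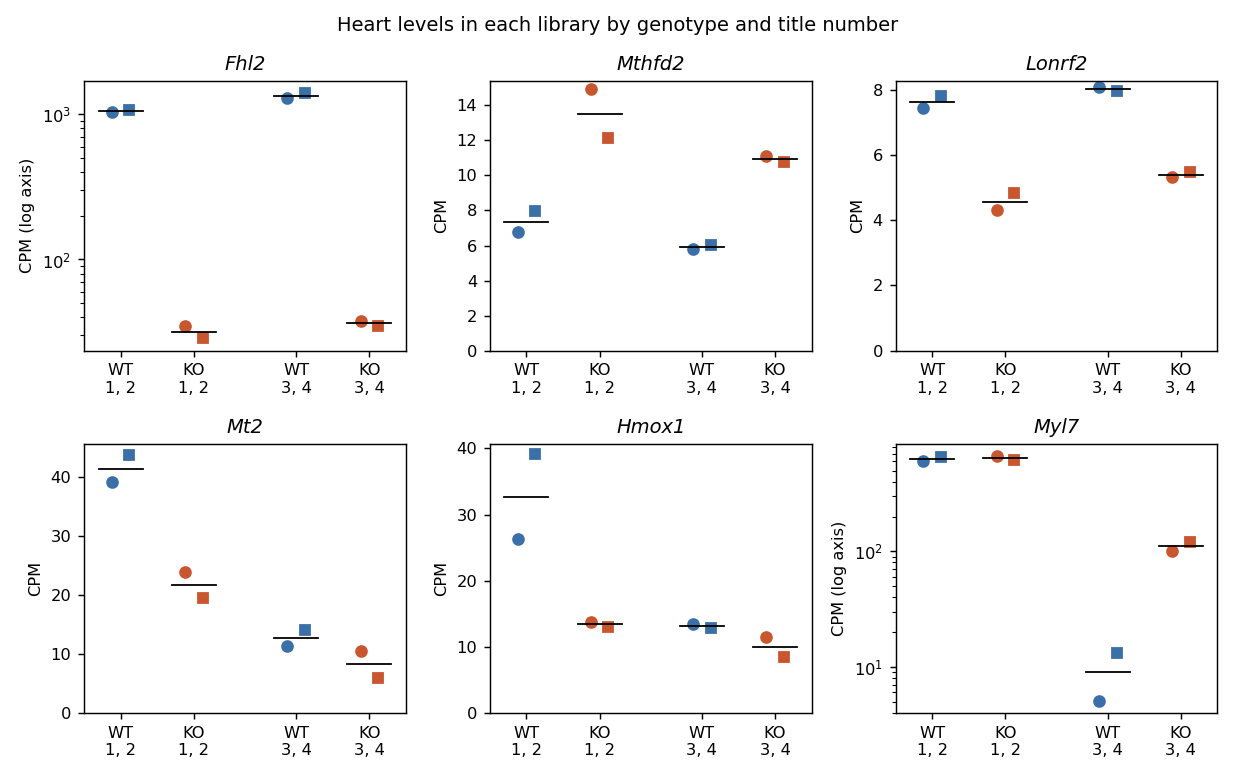
Levels in CPM are shown for 6 genes, with 1 point per heart library (circles numbers 1 and 3, squares numbers 2 and 4), WT in blue, KO in orange and the mean of each pair as a line; the axes of Fhl2 and Myl7 are logarithmic. Fhl2 separated the genotypes in both number sets, Mthfd2 was higher and Lonrf2, Mt2 and Hmox1 were lower in KO within each set, and Myl7 followed the number set with a genotype gap in numbers 3 and 4.

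Mthfd2 (chr6:83305691-83325908, minus strand) was at 6.77, 7.96, 5.82 and 6.02 CPM in WT libraries 1 to 4 and at 14.9, 12.1, 11.1 and 10.8 CPM in KO libraries 1 to 4. Every KO library lay above every WT library, and within each genotype numbers 1 and 2 were the higher ones. The log2 fold change was 0.88 ± 0.12 (adjusted p = 0.0292), a 1.84-fold higher level. It was 0.88 ± 0.17 in numbers 1 and 2 and 0.88 ± 0.18 in numbers 3 and 4. The enzyme passes one-carbon units from serine through mitochondrial folate, is scarce in most adult tissues, and is a textbook target of the transcription factor ATF4. The size of the difference was stable, between 0.76 and 0.94 over 21 alternative fits, but its call was not: the adjusted p was 0.600 without the number-set term, 0.139 with the title number as a block, and 0.0518 to 0.156 when any 1 of the 8 libraries was left out.

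The 250 bases before the RefSeq start of Mthfd2 (chr6:83317605-83317854, GRCm38.p6, minus strand) are shown because this was the one gene that rose. Capitals mark CCAAT, the pentamer of the NF-Y box, on either strand. It occurs 3 times, and 33.8% of all windows of this length hold it at least once. The letters TGATGNAA, a core of the element bound by ATF4, are not in this window and occur in 3.45% of all windows. Of 23 listed genes of the integrated stress response that have a window, 8 hold TGATGNAA. A gene was counted if any of its windows held the letters, so this count is per gene and the 3.45% is per window.
Mthfd2: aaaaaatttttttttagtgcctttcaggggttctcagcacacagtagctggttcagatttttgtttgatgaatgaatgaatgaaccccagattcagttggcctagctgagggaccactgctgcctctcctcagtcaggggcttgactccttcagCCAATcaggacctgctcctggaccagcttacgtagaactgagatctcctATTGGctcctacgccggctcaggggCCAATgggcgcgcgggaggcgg

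Genes next in order of p did not pass the adjusted threshold and are given as values. Among the higher ones, Slco1a4, an organic anion transporter of the endothelium, was at 2.28, 1.45, 0.608 and 1.36 CPM in WT and 4.69, 4.48, 2.62 and 2.94 CPM in KO libraries (1.37 ± 0.25, adjusted p = 0.265). All its KO values lay above all its WT values. Sec14l5, a lipid-transfer-like protein, was at 1.99, 1.68, 2.26 and 2.21 CPM in WT and 3.52, 5.01, 3.81 and 4.12 CPM in KO libraries (1.02 ± 0.20, adjusted p = 0.265). Igfbp3, a carrier of insulin-like growth factors, was at 24.5, 26.8, 24.5 and 21.5 CPM and 37.7, 30.2, 34.4 and 29.4 CPM (0.44 ± 0.09, adjusted p = 0.281). For both genes the groups did not overlap, and the number sets were alike. Id2, a helix-loop-helix protein that blocks differentiation factors, was at 14.9, 17.5, 7.38 and 6.79 CPM in WT and 23.8, 23.4, 12.9 and 10.3 CPM in KO libraries (0.61 ± 0.11, adjusted p = 0.265). KO exceeded WT within each number set, but KO numbers 3 and 4 lay below WT numbers 1 and 2. Hamp, which encodes the iron hormone hepcidin, was near the limit of detection at 1.10, 1.07, 0.174 and 0.254 CPM and 5.63, 2.55, 1.98 and 0.589 CPM (2.08 ± 0.41, adjusted p = 0.265). Npr3, the clearance receptor for natriuretic peptides, was at 188, 127, 82.3 and 69.5 CPM in WT and 237, 219, 105 and 144 CPM in KO libraries (0.62 ± 0.13, adjusted p = 0.265), again apart within each set and overlapping across them.

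Of these higher genes, 3 lie side by side on chromosome 7. Sbk2 (chr7:4940512-4964406) and Sbk3 (chr7:4965260-4971168) encode SH3-domain-binding kinases, and Zfp579 (chr7:4983483-4996158) a zinc finger protein. Sbk3 was at 105, 64.6, 5.99 and 7.12 CPM in WT and 130.3, 149, 16.1 and 28.5 CPM in KO libraries (1.09 ± 0.22, adjusted p = 0.265). Sbk2 was at 22.02, 15.9, 3.13 and 3.39 CPM and 28.3, 28.8, 5.63 and 7.07 CPM (0.71 ± 0.13, adjusted p = 0.265). Zfp579 had a fold change of 0.61 ± 0.12 (adjusted p = 0.265). All 3 were lower in numbers 3 and 4 than in 1 and 2, by −3.08, −2.33 and −1.09 on the log2 scale for Sbk3, Sbk2 and Zfp579, in the direction of the atrial genes. With the atrial level in the fit in place of the number-set term, the fold changes of Sbk3 and Sbk2 turned to −0.06 and −0.10, and that of Zfp579 was 0.20. With both terms in the fit they were 0.36, 0.40 and 0.47 for Sbk3, Sbk2 and Zfp579. Within numbers 3 and 4 Sbk3 passed (1.76 ± 0.30, adjusted p = 0.0486).

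Among the lower genes, which also did not pass, Mt2 had the smallest p. Mt2, a metal-binding metallothionein, was at 39.03, 43.7, 11.5 and 14.1 CPM in WT and 23.9, 19.4, 10.6 and 6.06 CPM in KO libraries (−0.80 ± 0.14, adjusted p = 0.265). Hmox1, the heme oxygenase, was at 26.3, 39.2, 13.5 and 12.9 CPM and 13.8, 13.1, 11.5 and 8.58 CPM (−0.88 ± 0.18, adjusted p = 0.270). For both, KO was the lower genotype within each number set, the highest WT values were in numbers 1 and 2, and the groups overlapped across sets. Il1r1, the receptor for interleukin-1, was at 30.6, 39.5, 20.6 and 23.6 CPM in WT and 17.2, 20.6, 18.2 and 15.98 CPM in KO libraries (−0.64 ± 0.13, adjusted p = 0.265), with the lowest WT library close to the highest KO library. Ccl9, a chemokine, was at 38.4, 49.3, 20.6 and 30.4 CPM and 27.1, 28.4, 20.2 and 17.5 CPM (−0.56 ± 0.12, adjusted p = 0.337), and its WT number 3 was close to KO number 3. With the atrial level in place of the number-set term, Mt2, Hmox1, Il1r1, Ccl9 and Myl1 passed, with adjusted p from 0.0284 to 0.0402. With both terms together none of the 5 passed (0.916 each). Their fold changes with both terms were −0.94, −1.13, −0.88, −0.76 and −0.70, in the order named. Myl1 is itself part of the atrial level.

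Of the other lower genes, Lonrf2, Sik1 and Ptpn12 had like levels in both number sets. Lonrf2, a ubiquitin-ligase-like protein, was at 7.44, 7.80, 8.07 and 7.97 CPM in WT and 4.30, 4.83, 5.32 and 5.47 CPM in KO libraries (−0.65 ± 0.13, adjusted p = 0.265). Sik1, a salt-inducible kinase that is switched on by cAMP, was at 43.2, 37.7, 40.5 and 44.3 CPM and 28.5, 34.02, 28.6 and 33.2 CPM (−0.41 ± 0.09, adjusted p = 0.270). Ptpn12, a phosphatase of focal adhesion proteins, was at 43.96, 46.7, 48.4 and 44.4 CPM and 34.5, 36.7, 39.1 and 35.4 CPM (−0.33 ± 0.07, adjusted p = 0.283). In these 3 genes the KO libraries all lay below the WT libraries. Nedd9, a docking protein of the same adhesions, was at 32.8, 32.97, 48.6 and 39.3 CPM in WT and 23.9, 25.2, 33.7 and 34.2 CPM in KO libraries (−0.40 ± 0.08, adjusted p = 0.265). Its KO libraries were the lower ones within each set, and across sets KO numbers 3 and 4 lay above WT numbers 1 and 2. Myl1, a myosin light chain shared by fast skeletal and atrial muscle, was at 55.01, 44.1, 17.4 and 19.2 CPM in WT and 31.6, 31.8, 14.04 and 8.41 CPM in KO libraries (−0.67 ± 0.12, adjusted p = 0.265). It was lower in numbers 3 and 4 like other atrial genes but was the single atrial-list gene with a negative genotype value.

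**Figure D3:**
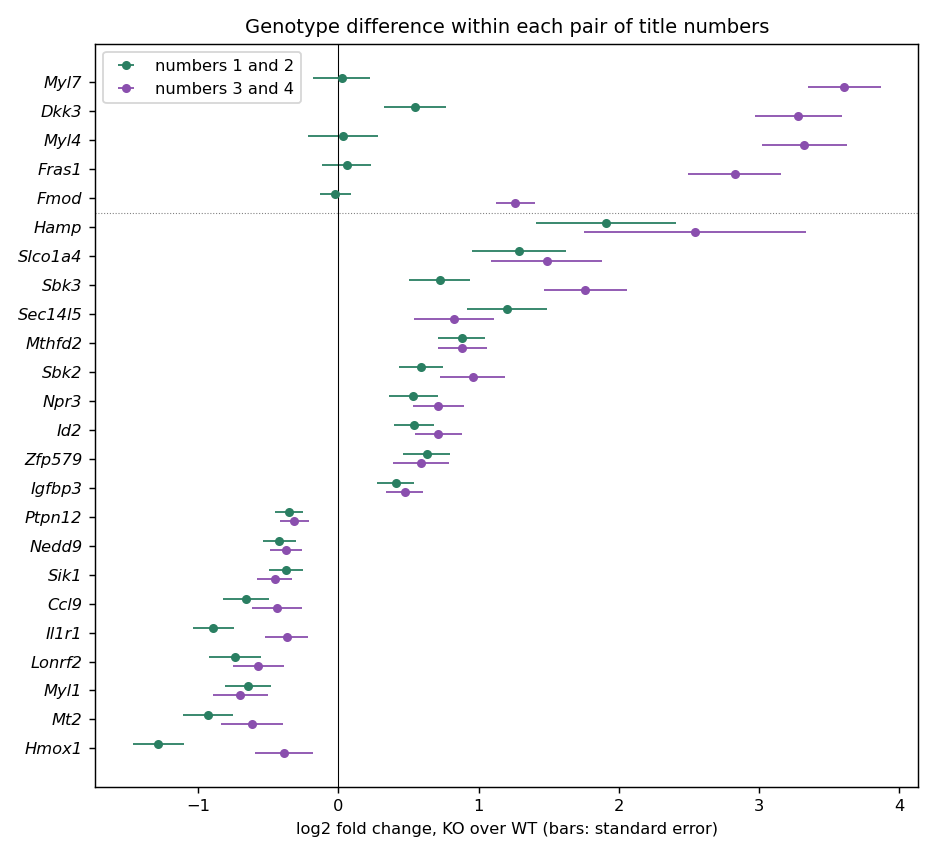
Log2 fold changes, KO over WT, are plotted with bars of 1 standard error for numbers 1 and 2 (green) and for numbers 3 and 4 (purple). Genes above the dotted line are the 5 with the smallest p for a difference between the sets, and those below it are Mthfd2 and the other genes with the smallest p for genotype; Mthfd2 lay at 0.88 in both sets, and Myl7 at 0.02 and 3.61.

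Whether the genotype difference was the same in both number sets was tested with an interaction term. In 7 of 14159 genes (0.0494%) it differed at an adjusted p of 0.05, and in all 7 it was more positive in numbers 3 and 4. These were Myl7, Myl4, Mybphl, Dkk3, Fras1, Fmod and Tmem163, of which Myl7 and Myl4 (atrial myosin light chains), Mybphl (a myosin-binding protein of atria and conduction tissue) and Dkk3 (a secreted Dickkopf protein) are on the atrial list. Myl4 was at 870.5, 778, 7.47 and 22.6 CPM in WT and 799.9, 884, 148 and 154 CPM in KO libraries, so that the genotypes were level in numbers 1 and 2 while both KO libraries of numbers 3 and 4 lay above both WT libraries. The interaction was 3.59 ± 0.33 for Myl7 and 3.29 ± 0.39 for Myl4 (adjusted p = 0.00149 and 0.0105). Fmod, a collagen-binding proteoglycan, was at 42.6, 46.7, 8.59 and 8.23 CPM in WT and 40.4, 47.6, 21.3 and 19.01 CPM in KO libraries (1.29 ± 0.18, adjusted p = 0.0245). The same step was seen for Fras1, an extracellular basement membrane protein. Tested for genotype within numbers 1 and 2, only Fhl2 passed (0.00706% of the 14159 genes). Within numbers 3 and 4, 17 genes passed (0.12%), Fhl2 lower and 16 higher, and 8 of the 16 are on the atrial list. The number-set term, which takes out only what both genotypes share, did not make the groups equal in atrial transcripts. The count of 7 was 2 without WT number 3 or without KO number 1, 13 without WT number 1 or without KO number 3, and 19 without KO number 2.

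The atrial list shows this as a whole. Its summed level was 6592, 5556, 806 and 887 CPM in WT libraries 1 to 4 and 7011, 7632, 1549 and 2055 CPM in KO libraries 1 to 4, above WT within each number set. Of 18 tested members 0 passed, and 13 stood higher and 1 lower at an unadjusted p under 0.05, against 3.16% and 2.51% of all genes. KO lay above WT within both sets for 10 and below for 1, against 3.29% and 2.87% of all genes. The median fold change was 0.65 over all libraries, 0.26 in numbers 1 and 2 and 1.56 in numbers 3 and 4. Pam, an enzyme that amidates peptide hormones and is abundant in atrial granules, was at 2024, 1744, 485 and 505 CPM in WT and 2109.7, 2289, 689 and 794 CPM in KO libraries (0.40 ± 0.09, adjusted p = 0.337). Kcnj3, a subunit of the acetylcholine-gated potassium channel, was at 115, 88.7, 55.2 and 65.6 CPM and 129, 174, 67.99 and 87.9 CPM (0.48 ± 0.12, adjusted p = 0.447). For both, KO lay above WT within each set. With the atrial level in place of the number-set term the fold change was −0.33 for Pam and 0.13 for Kcnj3. That level is the mean of the atrial list and so includes both genes. With both terms in the fit the values were 0.14 for Pam and 0.40 for Kcnj3. The ventricular list (9 tested, 0 passed, median 0.04) was close to 0. Its member with the smallest p, Kcnj2, an inward rectifier potassium channel, was at 31.6, 33.3, 40.5 and 35.96 CPM in WT and 31.9, 43.8, 48.6 and 53.8 CPM in KO libraries (0.32 ± 0.10, adjusted p = 0.568).

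Genes of the contractile apparatus, where FHL2 protein resides, showed no passing difference over the 8 libraries. Of the 25 tested sarcomere and Z-disc genes 0 passed and 0 had an unadjusted p under 0.05, and 1, Myh7, passed within numbers 3 and 4. Their median was 0.01, with values from −0.14 to 0.45. The largest belonged to Myh7, the slow myosin heavy chain that returns in stressed ventricles, at 139, 198, 124 and 100.4 CPM in WT and 135, 157, 282 and 201 CPM in KO libraries (0.45 ± 0.23, adjusted p = 0.899). Both KO libraries of numbers 3 and 4 were above all WT libraries, and those of numbers 1 and 2 were within the WT range. Within numbers 3 and 4 the value was 1.11 ± 0.18 (adjusted p = 0.0432), and within numbers 1 and 2 it was −0.21 ± 0.18 (adjusted p = 0.833). For Myh7 it was 0.45 with the atrial level in place of the number-set term and −0.01 with both in the fit. Actc1, cardiac actin, was at 7153, 6817, 6368 and 6606 CPM in WT and 5863, 5487, 6249 and 6942 CPM in KO libraries (−0.14 ± 0.08), and Tcap, the titin cap, was at 620.02, 552, 617 and 687 CPM and 868, 624, 639.6 and 605 CPM (0.14 ± 0.11), with KO number 1 alone above the rest. Of 17 calcium-handling genes 0 passed, with a median of −0.03. Ryr2, the calcium release channel, was at 1951, 1742, 2071 and 2281 CPM and 1614, 2153, 1767 and 1843 CPM (−0.12 ± 0.10), while Sln, the atrial inhibitor of the calcium pump, repeated the atrial step (0.42 ± 0.25 in numbers 1 and 2, and 3.03 ± 0.36 in numbers 3 and 4, where it passed with an adjusted p of 0.00263).

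Of 13 tested genes of hypertrophy and the fetal program 0 passed, and the median was 0.26, −0.21 in numbers 1 and 2 and 0.42 in numbers 3 and 4. Nppa, atrial natriuretic peptide, was at 1976, 1541, 74.8 and 68.6 CPM in WT and 2006, 2356, 209 and 491 CPM in KO libraries (1.27 ± 0.35, adjusted p = 0.468). Nppb, the B-type peptide, was at 78.3, 135, 66.4 and 39.8 CPM and 87.3, 92.4, 99.3 and 144 CPM (0.46 ± 0.27, adjusted p = 0.923). Nppa was far lower in numbers 3 and 4 in both genotypes. Within those numbers it passed (2.29 ± 0.29, adjusted p = 0.00436), and with the atrial level in place of the number-set term, a level that includes Nppa itself, its value turned to −0.38. With both terms in the fit the value of Nppa was 0.08. Nppb overlapped between genotypes, although both KO libraries of numbers 3 and 4 lay above both WT libraries there (1.19 ± 0.26, adjusted p = 0.229). Ccn2, a matricellular growth factor, was at 109, 83.8, 45.2 and 55.04 CPM in WT and 134, 123, 58.2 and 72.6 CPM in KO libraries (0.40 ± 0.10, adjusted p = 0.435), with like values in both sets (0.42 ± 0.14 and 0.38 ± 0.15). Rcan1, a calcineurin inhibitor whose transcript reports calcineurin activity, was at 84.2, 116, 61.9 and 59.03 CPM and 57.98, 60.6, 68.2 and 69.7 CPM (−0.29 ± 0.16, adjusted p = 0.920), and WT number 2 was the highest library. Of 17 genes of natriuretic and adrenergic signalling 0 passed (median 0.04).

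Serum response factor targets and immediate early genes are known nuclear contexts of FHL2. Of 17 tested targets 0 passed, and 9 were positive and 8 negative (median 0.08). Tpm4, a cytoskeletal tropomyosin, was at 192, 200.03, 171 and 163 CPM in WT and 141, 147, 166 and 146 CPM in KO libraries (−0.27 ± 0.08, adjusted p = 0.542). Actb, the cytoskeletal actin, was at 275, 363, 345 and 311 CPM and 282, 251, 304 and 262 CPM (−0.23 ± 0.09, adjusted p = 0.751). Of 20 immediate early genes 0 passed (median −0.10). Fosl2, an AP-1 subunit, was at 40.4, 57.8, 41.7 and 30.4 CPM and 28.1, 34.99, 29.7 and 30.6 CPM (−0.45 ± 0.13, adjusted p = 0.536), whereas Fos was at 7.36, 10.9, 30.5 and 10.6 CPM and 21.5, 17.7, 40.8 and 9.76 CPM (0.67 ± 0.38, adjusted p = 0.920). Number 3 was the highest library for Fos in both genotypes, and the 2 AP-1 members did not share a sign.

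**Figure D4:**
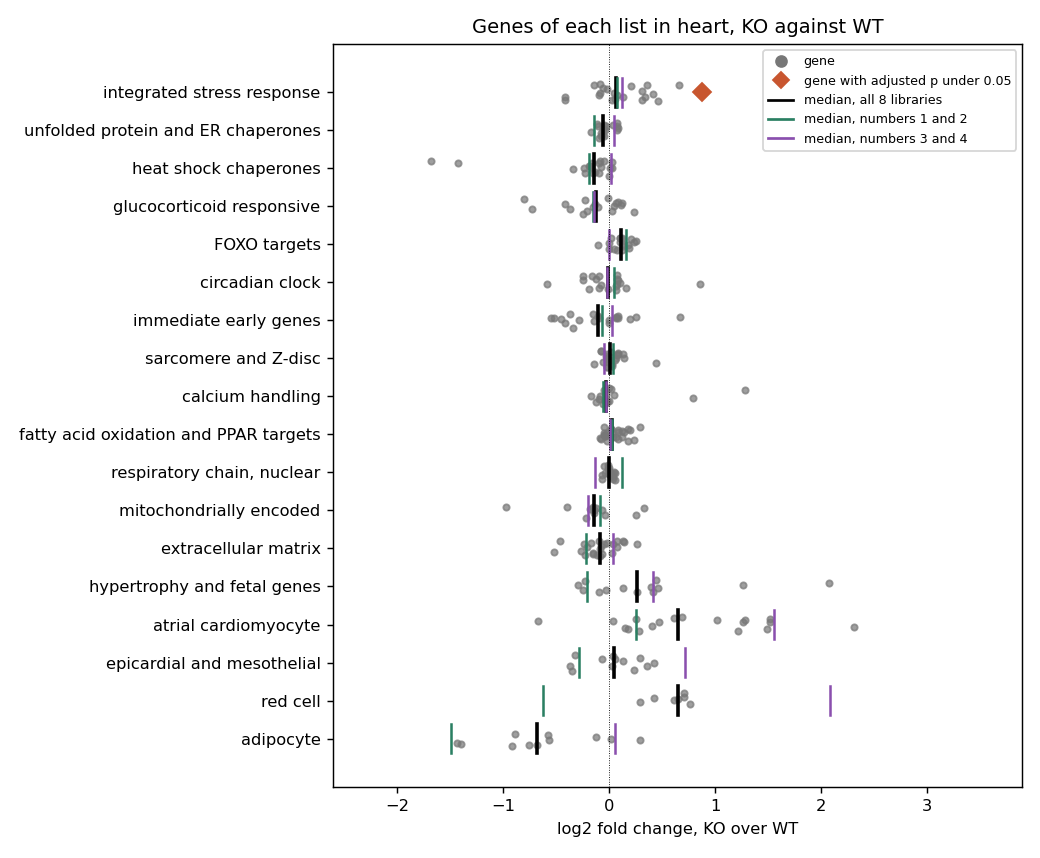
Each grey point is the log2 fold change, KO over WT, of 1 tested gene of the list named at the left; bars give the list's median over all 8 libraries (black), over numbers 1 and 2 (green) and over numbers 3 and 4 (purple). Most lists centre near 0 in both sets, and the atrial, epicardial, red cell and adipocyte lists have medians that lie far apart between the sets, such as −0.62 and 2.09 for red cell genes.

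Mthfd2 was the one passing member of the integrated stress response, the program in which ATF4 raises amino acid and one-carbon enzymes. Of 22 tested genes 14 were positive and 8 negative, with a median of 0.07, and 4 stood higher and 0 lower at an unadjusted p under 0.05 (3.16% and 2.51% of all genes). In 3 of the 22 the KO libraries all lay above the WT libraries, against 1.24% of all genes. These were Mthfd2, Atf5 and Psph. Atf5, a transcription factor of the mitochondrial stress response, was at 70.7, 69.1, 67.98 and 64.1 CPM in WT and 107, 80.5, 77.7 and 74.5 CPM in KO libraries (0.32 ± 0.09, adjusted p = 0.514). Psph, the last enzyme of serine synthesis, was at 2.95, 2.75, 3.47 and 3.31 CPM and 4.84, 3.52, 3.97 and 3.62 CPM (0.36 ± 0.18, adjusted p = 0.899). Aldh1l2, a mitochondrial folate dehydrogenase, was at 19.8, 15.8, 13.3 and 17.05 CPM and 20.004, 25.1, 18.4 and 18.3 CPM (0.31 ± 0.11, adjusted p = 0.696), and Trib3, a pseudokinase induced by the same response, was at 3.17, 4.28, 4.34 and 3.56 CPM and 7.74, 4.22, 4.44 and 4.71 CPM (0.46 ± 0.21, adjusted p = 0.879). The values of Aldh1l2 lay apart within each set, and Trib3 rested on KO number 1.

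The related unfolded protein response, in which sensors of the endoplasmic reticulum raise its chaperones, had 13 of 18 negative values with 0 passing and a median of −0.05. Edem1, which delivers misfolded glycoproteins to degradation, was at 22.5, 24.9, 20.6 and 22.5 CPM in WT and 19.5, 19.7, 18.6 and 22.5 CPM in KO libraries (−0.17 ± 0.09, adjusted p = 0.913), with overlapping groups. Among cytosolic heat shock chaperones 17 of 20 values were negative, 0 passed and 3 stood lower at an unadjusted p under 0.05 (2.51% of all genes). The list median was −0.14 over all libraries, −0.19 in numbers 1 and 2 and 0.02 in numbers 3 and 4. Hspa1b, an inducible Hsp70, was at 9.43, 23.5, 2.08 and 1.87 CPM in WT and 1.80, 5.36, 1.03 and 1.85 CPM in KO libraries (−1.68 ± 0.43, adjusted p = 0.447), and its near-identical copy Hspa1a at 10.8, 26.01, 1.91 and 0.763 CPM and 1.64, 9.58, 1.03 and 1.09 CPM (−1.42 ± 0.49, adjusted p = 0.690). WT number 2 was the highest library for both, and reads can be split between these 2 copies. Hspa8, the constitutive Hsp70, was at 458, 487, 394 and 427 CPM and 393, 408, 342 and 410.3 CPM (−0.18 ± 0.07, adjusted p = 0.783), with −0.24 ± 0.10 in numbers 1 and 2 and −0.13 ± 0.10 in numbers 3 and 4.

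Of 18 glucocorticoid-responsive genes 0 passed and 5 stood lower at an unadjusted p under 0.05 (2.51% of all genes), with a median of −0.12. The 5 include Mt2 and Per1, the latter also a clock gene. Lcn2, a siderophore-binding acute phase protein, was at 4.20, 3.98, 2.95 and 3.05 CPM in WT and 2.97, 2.29, 1.51 and 1.85 CPM in KO libraries (−0.72 ± 0.19, adjusted p = 0.456). Sgk1, a kinase of salt transport, was at 106, 99.6, 98.8 and 114 CPM and 93.5, 83.7, 78.5 and 101 CPM (−0.23 ± 0.09, adjusted p = 0.734). Both genes had negative values in each number set, Lcn2 with KO below WT in both. FOXO factors are bound by FHL2, and of 18 FOXO targets 17 were positive and 1 negative, against 49.7% positive among all genes, with 0 passing. Their median was 0.11 over all libraries, 0.16 in numbers 1 and 2 and 0.00 in numbers 3 and 4. Bnip3, a mitophagy receptor, was at 83.9, 92.9, 90.3 and 97.6 CPM in WT and 99.1, 99.1, 96.2 and 128 CPM in KO libraries (0.21 ± 0.09, adjusted p = 0.805), and KO number 4 stood above the others. Fbxo32, the atrophy ubiquitin ligase, was at 148, 117, 194 and 157 CPM and 176, 171, 171 and 178 CPM (0.19 ± 0.10, adjusted p = 0.918).

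The circadian clock list (19 tested, 0 passed, median −0.01) held a pair of partners with opposite signs. Npas2, the CLOCK-like subunit, was at 1.25, 1.22, 1.30 and 0.933 CPM in WT and 2.42, 1.49, 1.67 and 3.03 CPM in KO libraries (0.86 ± 0.29, adjusted p = 0.684), with all KO values above all WT values. Arntl, which encodes its partner BMAL1, was at 2.06, 3.06, 2.34 and 3.48 CPM and 1.80, 1.41, 1.90 and 2.19 CPM (−0.58 ± 0.24, adjusted p = 0.793), lower in KO within each set but overlapping across them. Both were expressed at a few CPM, and the time of day of tissue collection is not given in the sources used here. Npas2 lies within 20 Mb of Fhl2 on chromosome 1. Among antioxidant and iron genes, 0 of 20 passed (median −0.03). Gpx3, a secreted glutathione peroxidase, was at 586, 617, 181 and 188 CPM in WT and 762, 647, 258 and 252 CPM in KO libraries (0.35 ± 0.08, adjusted p = 0.337), with KO above WT in each number set and far lower levels in numbers 3 and 4. With the atrial level in place of the number-set term its fold change turned to −0.31, and with both terms in the fit it was 0.22.

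Fuel metabolism, on a diet rich in fat, was close between the genotypes. Of 26 tested genes of fatty acid oxidation and PPAR signalling 0 passed and 0 had an unadjusted p under 0.05, and the median was 0.03, with values from −0.09 to 0.30. Ucp3, a mitochondrial carrier raised by fatty acids, had the largest value and was at 27.98, 18.1, 39.8 and 46.99 CPM in WT and 37.2, 22.9, 48.6 and 52.2 CPM in KO libraries (0.30 ± 0.15, adjusted p = 0.899). Acot2, a mitochondrial thioesterase, was at 52.9, 52.5, 70.5 and 73.02 CPM and 69.2, 50.5, 77.4 and 85.6 CPM (0.18 ± 0.09, adjusted p = 0.899). Nuclear-encoded respiratory chain genes (21 tested, 0 passed) had a median of 0.00, tricarboxylic acid cycle genes (19 tested, 0 passed) −0.01, and genes of glucose use (21 tested, 0 passed) −0.03. In each of these 3 lists the median was positive in numbers 1 and 2 and negative in numbers 3 and 4.

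Mitochondrially encoded transcripts had 11 of 13 negative values, and 7 stood lower at an unadjusted p under 0.05 (2.51% of all genes), though 0 passed. The median was −0.14, −0.08 in numbers 1 and 2 and −0.19 in numbers 3 and 4. Their summed level was 269804, 250598, 325473 and 346771 CPM in WT and 246796, 243581, 288744 and 296852 CPM in KO libraries, so that KO lay below WT within each set and overlapped across sets. mt-Co1, a core subunit of cytochrome oxidase, was at 70767, 68492, 85460.5 and 90862 CPM in WT and 65797, 65982, 75819 and 78453 CPM in KO libraries (−0.14 ± 0.06, adjusted p = 0.821), and mt-Nd2, a subunit of complex I, at 28502, 25069.9, 33307 and 36575 CPM and 22676, 24729, 29497 and 31792 CPM (−0.18 ± 0.07, adjusted p = 0.711). mt-Co2, mt-Co3 and mt-Atp6, which are among the 7 lower genes, were counted at a small part of that level. With mt-Co2 at 29.4, 24.5, 184 and 34.5 CPM in WT libraries, their values are uncertain. These transcripts share 1 genome and long precursors and are not independent of each other. With the atrial level in place of the number-set term the list median was −0.02, and with both terms in the fit it was −0.12.

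Extracellular matrix genes (24 tested, 0 passed) had 17 negative values and a median of −0.08, −0.21 in numbers 1 and 2 and 0.04 in numbers 3 and 4. Loxl1, an enzyme that crosslinks elastin, was at 43.004, 38.6, 33.8 and 30.96 CPM in WT and 31.2, 32.8, 30.9 and 26.6 CPM in KO libraries (−0.26 ± 0.08, adjusted p = 0.571), lower in KO within each set. Among 17 genes of TGF-beta signalling 0 passed (median −0.02). Tgfb1, the ligand itself, was at 36.5, 36.6, 31.9 and 28.8 CPM in WT and 28.99, 28.9, 31.4 and 24.1 CPM in KO libraries (−0.23 ± 0.09, adjusted p = 0.751). The larger gap was in numbers 1 and 2, with −0.34 ± 0.12 against −0.13 ± 0.13.

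Genes that mark other cells of the heart were read in the same way. Endothelial markers (14 tested, 0 passed) had a median of −0.03. Vwf, the von Willebrand factor of larger vessels and endocardium, was at 186, 149, 88.03 and 149 CPM in WT and 209, 218, 183 and 169.9 CPM in KO libraries (0.46 ± 0.13, adjusted p = 0.518), and Eng, a co-receptor for TGF-beta ligands, was at 257, 230.3, 189.9 and 188 CPM and 315, 261, 219 and 207 CPM (0.21 ± 0.07, adjusted p = 0.696). Both were higher in KO within each set, while Cdh5 and Cldn5, junction proteins of all endothelium, had values of −0.09 ± 0.09 and −0.15 ± 0.11. Macrophage and monocyte markers (14 tested, 0 passed) had a median of −0.08. Adgre1, the F4/80 antigen, was at 17.5, 18.9, 23.01 and 21.4 CPM in WT and 17.3, 16.6, 17.8 and 15.7 CPM in KO libraries (−0.25 ± 0.09, adjusted p = 0.715). Cytokine and acute phase genes (17 tested, 0 passed) had a median of −0.10. Ccl2, the monocyte chemokine, was at 5.60, 20.8, 4.34 and 2.04 CPM and 1.88, 3.43, 3.01 and 2.61 CPM (−1.40 ± 0.49, adjusted p = 0.690), and the WT mean rested on number 2, which was also the highest library for Ccl7, Hspa1a and Hmox1. Valve and endocardial genes (10 tested, 0 passed, median 0.24) were lower in numbers 3 and 4, by −0.81 on the log2 scale in the median, like the atrial ones.

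Among further marker lists, the genotype difference went apart between the number sets most widely in 3, which are given here. Epicardial and mesothelial markers (12 tested, 0 passed) summed to 370.1, 457, 75.6 and 64.5 CPM in WT and 297, 378, 80.1 and 159 CPM in KO libraries, and their median was −0.28 in numbers 1 and 2 and 0.72 in numbers 3 and 4. Red cell genes (7 tested, 0 passed) summed to 560.2, 1563, 501 and 203 CPM and 751, 718, 1852 and 880.1 CPM, with medians of −0.62 and 2.09, and the globin genes among them have near-identical copies. Adipocyte genes (11 tested, 0 passed) summed to 73.3, 212, 163 and 39.7 CPM and 46.7, 69.4, 90.7 and 138 CPM, with medians of −1.49 and 0.06. WT numbers 2 and 3 held the most adipocyte transcript and WT number 2 and KO number 3 the most globin, so the highest values of these 2 lists were in libraries of both genotypes or of WT. The part of atrial, epicardial, red cell or adipocyte content in the differences of other genes was not tested beyond the fits with the atrial level.

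Genes close to Fhl2 on the chromosome were also read on their own. Within 20 Mb on chromosome 1, 167 genes other than Fhl2 were tested, 0 passed, and 13 (7.78%) had an unadjusted p under 0.05, against 5.68% of all genes. Lonrf2 (chr1:38793645-38836711) and Il1r1 (chr1:40225080-40317257), described above, had the smallest p. Coq10b, a coenzyme Q chaperone, had group means of 46.5 CPM in WT and 39.2 CPM in KO hearts (−0.25 ± 0.09, adjusted p = 0.690), and Cnnm3, a magnesium transport protein, 11.1 CPM and 14.03 CPM (0.33 ± 0.11, adjusted p = 0.690). Groups did not overlap in either gene, and the directions near Fhl2 were mixed.

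The genotype difference in heart was compared with that in gWAT by an interaction contrast over all 14 libraries, in which 353 of 16014 genes (2.2%) passed. That count moved between 20, without gWAT WT number 4, and 1775, without gWAT WT number 1. Heart and gWAT titles share numbers, and the labels do not say whether equal numbers are the same animal. The fit treated all 14 libraries as independent. Mthfd2 had the smallest p. It rose in KO heart and fell in KO gWAT (−1.08 ± 0.13, adjusted p = 0.0156 in gWAT), and the difference was 1.96 ± 0.16 (adjusted p = 4.83e-05). Mt2, Lonrf2 and Il1r1 also differed between the tissues, by −1.16 ± 0.23, −1.35 ± 0.28 and −0.88 ± 0.18 (adjusted p = 0.0243, 0.0281 and 0.0263), although in neither tissue did they pass on their own. Hmox1, with −0.88 ± 0.18 in heart, fell in KO gWAT (−1.20 ± 0.10, adjusted p = 0.0101), and its difference between tissues did not pass (adjusted p = 0.525). Among the genes that follow Mthfd2 in this contrast are Ces1d, a carboxylesterase, Pdxk, the vitamin B6 kinase, and Ctsl, a lysosomal protease. None of these 3 passed in heart, where their log2 fold changes were −0.03 ± 0.09, −0.01 ± 0.08 and 0.10 ± 0.07.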

How the data were processed

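Deposited values are raw read counts per Ensembl gene, 1 column per library. The submitters' processing notes list HISAT2 2.1.0, Trimmomatic 0.32, HTSeq 0.11.0, Picard, FastQC, limma and mm10 without saying what each did. For the annotation release and strandedness the sources used here give nothing, so overlapping, antisense and near-identical genes are uncertain. Per the labels' protocols, RNA was taken from frozen tissue by Trizol and turned into libraries by the Kapa mRNA HyperPrep kit.

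The 8 heart libraries held 10835092 to 13272412 counts, which limits precision for genes of a few CPM. They were filtered with filterByExpr, scaled with TMM and tested in R 4.3.3 with edgeR 4.0.16 (quasi-likelihood F test, Benjamini-Hochberg adjustment over all 14159 genes, threshold 0.05), with genotype and a term for numbers 3 and 4 against 1 and 2. The SE is the fold change divided by the square root of F. The interaction with the number set and the heart against gWAT contrast (all 14 libraries) used the same test. The genotype fit in heart was also run on simulated counts with 14010 genes tested. It recovered 24, 44, 47 and 49 of 50 genes changed by a log2 fold of 0.5, 1, 1.5 and 2, and 18 calls were false. Far more genes were changed there than passed in the real fit, each by the same fold in both number sets. More changed genes ease the adjusted threshold, so these shares do not describe recovery in the real data. Many differences of about 0.5 or less can be missed. In the real fit larger values also did not pass, such as log2 fold changes of 2.08 for Hamp and 1.37 for Slco1a4. The 12 pairs of heart libraries within a genotype were compared, and none agreed within sampling noise (chi-square per degree of freedom 3.53 to 21.9). Coordinates are from GENCODE M21 and promoter windows from RefSeq GRCm38.p6.

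The members, the 53 gene lists and the number-set term were chosen with earlier results of these data known. Named genes are Fhl2 and its relatives, genes past the threshold, those with the smallest p up to 10 per direction, up to 5 with the smallest p in each interaction, and up to 5 per described list (26 lists); the lists to describe, and single genes behind a small count, were picked with values in view. Some genes that this rule names are not reported here. Deviations from the group means correlated between equal title numbers at 0.252, 0.365, 0.335 and 0.258. Unequal numbers of the same set correlated at 0.446, 0.171, 0.317 and 0.261, so these values do not single out equal numbers as pairs. With the number set taken out, equal numbers correlated at 0.00466 and 0.0073. The main fit used the number set, and a block by title number was an alternative. Alternatives were other scaling, filters, tests (DESeq2 1.42.0, limma-voom 3.58.1), number and atrial terms, number sets, thresholds, windows, and each library left out. The fit with the number-set term and the atrial level together was added after seeing the data.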

Additional observations from a re-analysis of the deposited data

Results flagged for a closer look

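Within a genotype, 13 of 290 sets of 4 libraries (4.48%) had 1 library far from the other 3, and chance gives about 5%, or 1 in 20. In KO hearts these were Pdxk at 24.0 CPM in number 3, and, in number 1, Tcap at 868 CPM, Trib3 at 7.74 CPM, Cry1 at 13.99 CPM and Gpnmb at 2.50 CPM. Hspa1a stood at 9.58 CPM in KO number 2, Bnip3 at 128 CPM in KO number 4 and Alas2, a red cell enzyme, at 88.0 CPM in KO number 3. In WT hearts, number 2 stood apart for Per1 at 49.3 CPM, Ccl7 at 25.2 CPM and Hbb-bt, a beta globin, at 155 CPM, and number 3 for Fos at 30.5 CPM and mt-Co2 at 184 CPM.

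The genotype difference in numbers 3 and 4 minus that in numbers 1 and 2 passed an adjusted p of 0.05 in edgeR's interaction test for 7 genes. On the log2 scale it was 3.59 for Myl7, 3.29 for Myl4, 3.08 for Mybphl, 2.99 for Tmem163, 2.77 for Fras1, 2.73 for Dkk3 and 1.29 for Fmod. For Mthfd2 the genotype difference in heart minus that in gWAT was 1.96. The part of atrial content in the former values was not tested.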

How the results depend on the processing

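Fhl2 passed under all 22 alternatives, between −5.21 and −5.01. Mthfd2 kept its direction in all 21 that gave it an adjusted p, and DESeq2, which gave adjusted values from a mean count of 141 upwards, gave none at its mean count of 116. In DESeq2 the log2 fold change of Mthfd2 was 0.88 (unadjusted p = 1.0e-07), so it could not be among the genes called there. Its log2 fold change no longer passed without the number term (0.88), with title numbers as a replicate block (0.88), with the atrial level in its place (0.76), in numbers 1 and 2 only (0.88), in numbers 3 and 4 only (0.89), with number term and atrial level together (0.91), and without each library in turn (0.81 to 0.94). The count of 2 genes became 224 with no filter, 20 with DESeq2, 7 with the atrial level in place of the number term, 17 in numbers 3 and 4 only, and 1 without the number term, with the replicate block, in numbers 1 and 2 only, with both terms or at a threshold of 0.01. It was 1 to 3 without single libraries. Near Fhl2 the count of 0 became 4 with no filter, 2 with DESeq2 and 1 with the atrial level. The 7 genes of the number-set interaction became 204 with no filter, 15 with DESeq2 and 2 with limma-voom, and 2 to 19 without single libraries. The 353 of the tissue contrast became 1448, 872 and 129 under the same 3 settings, 184 without the number term, and 20 to 1775 without single libraries. The replicate block changed no other call among the heart genotype results, and it was not run for the number-set interaction or the tissue contrast. The causes of these changes were not tested, except that the number sets alone use 4 libraries.

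Of 572 values of list medians, 538 moved by less than the spread between replicates and 517 kept their sign. Of 3114 values of other named genes, 3022 stayed on the same side of the threshold. DESeq2's 20 genes included Npr3, Mt2, Myl1, Hmox1, Pam, Il1r1, Gpx3, Sbk2, Id2, Ccl9, Kcnj3, Sik1, Ccn2 and Igfbp3.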
